A study of Mus musculus with 6 samples.

Results

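The genes studied here encode proteins of the cornified envelope and belong to the epidermal differentiation complex, a cluster of mouse chromosome 3. They were chosen by symbol and not by expression. The rule took each symbol that starts with Sprr, or with Lce followed by a digit, together with Lor, Ivl, Flg, Flg2, Hrnr, Rptn, Tchh, Tchhl1, Crnn, Crct1 and Lelp1. It found 49 of the 43629 genes in the count table, and the S100 genes of the cluster were left out. All 49 lie between 92080271 and 93471980 on chromosome 3 (GRCm38, GENCODE M21), a stretch of 1392 kb that starts with Lor and ends with Tchhl1. The set holds 17 Sprr genes (13 of them Sprr2), 21 Lce genes (14 Lce1, 6 Lce3 and Lce6a), 7 fused S100-type genes, Lor, Ivl, Crct1 and Lelp1.

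Expression was measured by poly(A) RNA sequencing of primary keratinocytes from female mice at postnatal day 3. The Dnmt1Δ/Δep mice carried Dnmt1 f/f alleles and a K5-Cre transgene, which is active in basal keratinocytes from mid-gestation, and therefore lacked the maintenance DNA methyltransferase in the epidermal lineage. Control mice were Dnmt1 f/f or Dnmt1 f/+ without Cre, on the same mixed C57BL/6J and 129SV background, and the labels do not give which of both genotypes a control library had. Cells of 3 control and 3 Dnmt1Δ/Δep mice were cultured for 5 days, with 1 library per mouse. The medium of both groups contained 8% chelated serum and 0.05 mM CaCl2. A legend of the study gives a shorter culture time.

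The libraries held 53433121 to 115526598 reads on genes, and control replicate 3 was the shallowest. Dnmt1, given in CPM (counts scaled to the size of the library), was at 394, 379 and 324 in control replicates 1 to 3 and at 49.7, 54.3 and 50.7 after deletion, a log2 fold change of −2.83 (SE 0.11, adjusted p = 8.1e-05). Summed basal keratinocyte markers, among them Krt5 and Krt14, lay between 29510 and 33560 CPM in control and between 22930 and 23360 CPM in Dnmt1Δ/Δep libraries, a difference carried mainly by Krt5 and Krt14. Of the 10 markers, 6 had negative and 4 positive log2 fold changes (Itga6, Itgb4, Itga3 and Lamb3), and 5 were lower and 1 higher at an unadjusted p under 0.05 in edgeR. Krt5, Krt14, Col17a1 and Dst had an adjusted p between 0.013 and 0.038 with changes smaller than 1 on the log2 scale, and Krt15 was downregulated, a call lost without control replicate 2 or any 1 Dnmt1Δ/Δep library. Replicates of one number share a flow-cell lane and are treated as a pair below.

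In the epidermis, keratinocytes leave the basal layer, stop dividing and build a shell of cross-linked protein beneath the plasma membrane, the cornified envelope. Involucrin (Ivl) is laid down early as a scaffold, loricrin (Lor) is a major late component, and the small proline-rich (SPRR) proteins bridge them through bonds made by transglutaminases. Late cornified envelope (LCE) proteins are added in the outermost living layers. The fused S100-type genes encode large repeat-rich proteins, of which filaggrin (Flg) bundles keratin filaments and trichohyalin (Tchh) strengthens the inner root sheath of the hair follicle. Many of these genes are induced when extracellular calcium rises, and low-calcium medium is used to hold cultured keratinocytes in a basal-like state.

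Of the 49 members, 45 had enough reads to be tested, and 4 were upregulated and 1 downregulated in Dnmt1Δ/Δep keratinocytes. Sprr3, Sprr2k, Sprr2j-ps and Tchhl1 rose by 1.66 to 3.23 on the log2 scale, Lce3d fell by 1.08, and 40 members did not pass. A call needed both an adjusted p no higher than 0.05 and a change of 1 or more on the log2 scale. By this rule 6.03% of all 16829 genes tested were upregulated and 0.392% downregulated. The median log2 fold change over the members tested was 0.51, with 35 positive and 10 negative, while the median over all genes was −0.0009. At an unadjusted p under 0.05, 10 members were higher and 3 lower, where 15.8% and 7.79% of all genes were. RNA of a whole culture was measured, in which a changed share of differentiating cells and a changed amount of RNA per cell cannot be told apart.

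**Figure D1:**
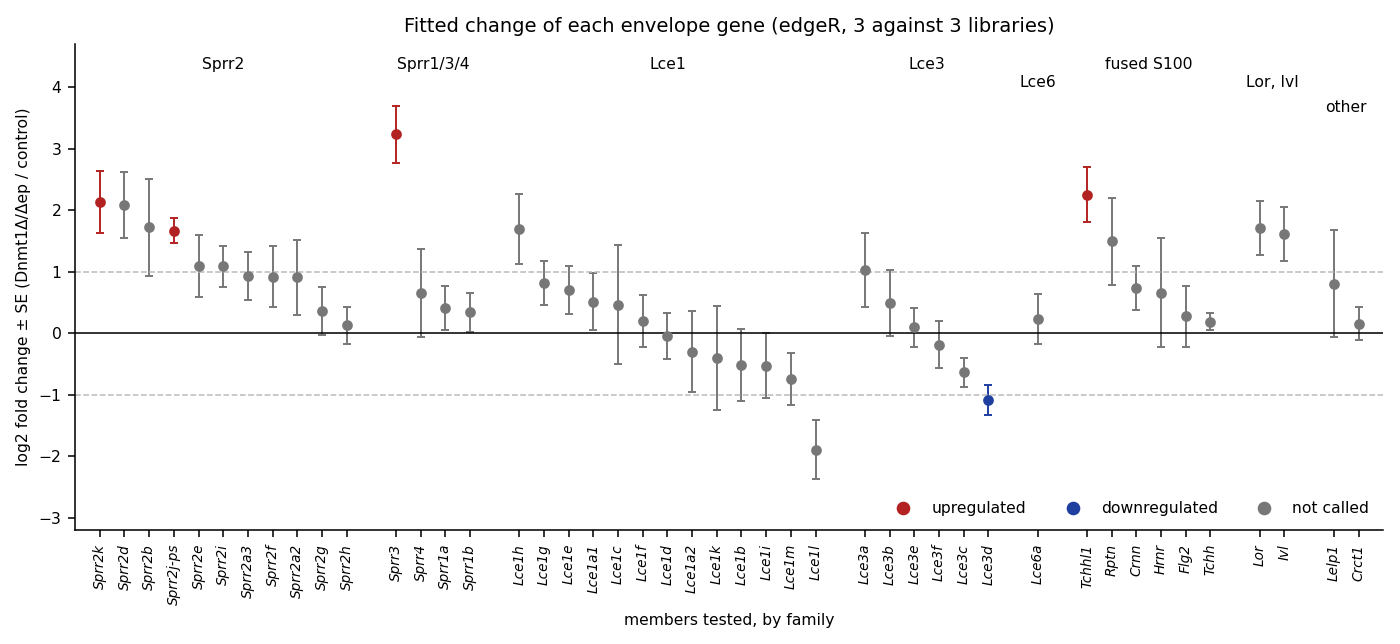
Log2 fold change (Dnmt1Δ/Δep over control) with its standard error for the 45 members tested, by family, from the fit to 3 against 3 libraries. Red points are upregulated, the blue point is downregulated, grey points were not called and dashed lines mark a log2 fold change of 1 in either direction. All 15 Sprr points lie above 0, while 10 of the 20 Lce points lie above and 10 below.

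The number of calls depended on the model and on which libraries were used. With the replicate pair as a block, 6 members were upregulated and 2 downregulated, beside 6.97% and 0.565% of all genes, since Sprr2a3, Sprr2d and Lce1l then passed. The Wald test of DESeq2 called 9 members upregulated, beside 7.63% of all genes, by adding Lor, Ivl, Sprr2d, Sprr2i and Lce1h. The same 9 were upregulated when no filter on low counts was applied, where 4.68% of all genes were. Without control replicate 3, the number rose to 10, beside 5.27% of all genes, and it was also 10 with both libraries of the third pair left out, beside 3.7%. With both libraries of the first pair left out it was 4, beside 5.02%, and with both of the second pair left out it was 1 (Sprr2j-ps), beside 1.21%. The number was 2 without control replicate 2 or without Dnmt1Δ/Δep replicate 1, beside 3.23% and 3.41% of all genes.

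Level per transcript length set 3 members apart from the rest. In control libraries Sprr1b had 660 ± 259, Sprr1a 572 ± 262 and Sprr2h 524 ± 241 RPKM (SD, n = 3). These values overlapped within their spread between libraries, and the order of the 3 genes within each library was not compared. Crct1 followed with 81.8 ± 25.3 and Sprr2g with 76.8 ± 46.7 RPKM. Next came Sprr2d with 54.2 ± 43.5, Sprr2j-ps with 51.9 ± 7.88 and Lce3c with 38.7 ± 3.55 RPKM. Loricrin reached 5.83 RPKM.

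The promoters share a low CpG content. RefSeq (GRCm38.p6) gave the 300 bases from 250 before to 50 after the transcription start for 44 of the 49 members. They contained a median of 1 CpG (range 0 to 5), compared with a median of 7 (0 to 67) over 32851 mouse promoters, and 43.6% of all promoters had at most 5. The TATA box letters TATAAA, searched on the strand of the gene, occurred in 71.4% of 14 Sprr, 10% of 20 Lce and 60% of 10 other member promoters, and in 8.32% of all promoters. TGANTCA, the motif of the AP-1 factors (Jun and Fos proteins) searched on both strands, occurred in 64.3% of Sprr, 0% of Lce and 70% of other member promoters, and in 7.81% of all. GAAANNGAA, a core of interferon response elements searched on both strands, occurred in 28.6% of Sprr, 0% of Lce and 0% of other member promoters. This was 9.09% of the member promoters, all of them Sprr2, beside 8.56% of all promoters. These are exact matches of letters in a window and were not tested for binding. Variants of the letters were not counted. The windows follow the RefSeq start, which lay more than 20 bases from the start of the GENCODE gene for 5 of the 44 members (Sprr2a1, Sprr2a2, Sprr2a3, Sprr2b and Flg). Another start would shift these windows, and the matches in them were not searched from the GENCODE start.

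**Figure D2:**
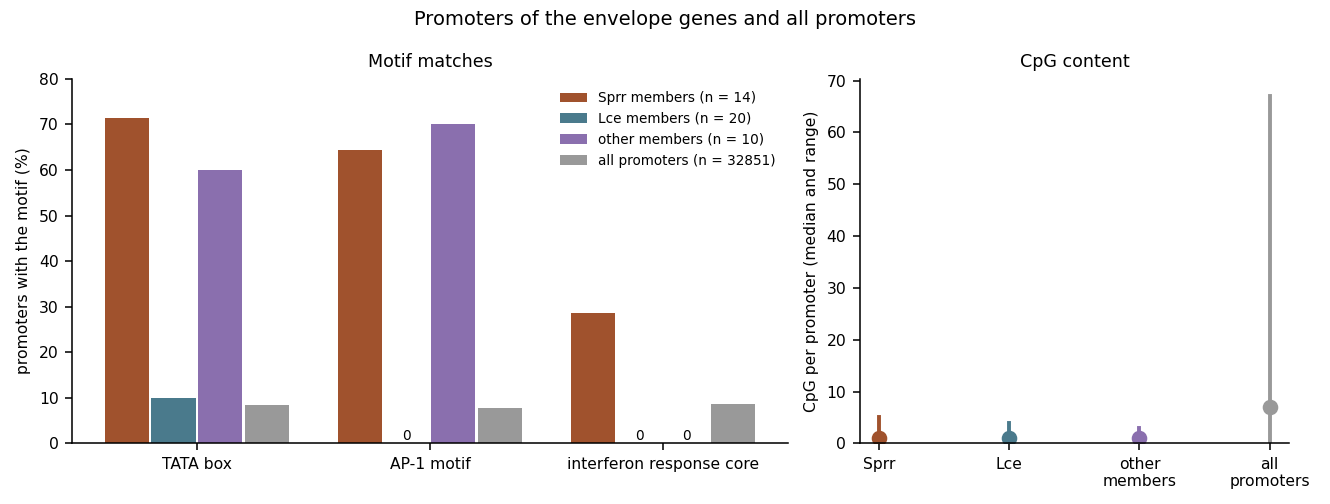
Left, percent of promoters with a match to the TATA box, the AP-1 motif and the interferon response core for Sprr, Lce and other members and for all 32851 mouse promoters (bars start at 0). Right, median (point) and range (line) of CpG dinucleotides per promoter, with at most 5 in any member.

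The fitted changes of the SPRR genes over all 6 libraries pointed upward, as did those of the members tested outside the Lce1 and Lce3 groups. All 15 Sprr members tested had a positive log2 fold change, with a median of 0.93, and 3 were upregulated (Sprr3, Sprr2k and Sprr2j-ps). In 6 of them the 3 Dnmt1Δ/Δep libraries lay above all 3 control libraries. Over all members tested this held for 9, and over all genes for 18.2%. In the first and the second pair all 15 ratios were positive, but in the third 7 were positive and 8 negative (median −0.05). The lowest fitted change of the family was that of Sprr2h, which turned negative without control replicate 1 (−0.11) or Dnmt1Δ/Δep replicate 2 (−0.063).

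Sprr3, which is known from oesophageal and other internal squamous epithelia, was almost silent in control cells. It had 0.243, 0.123 and 0.261 CPM in control and 2.65, 2.13 and 1.08 CPM in Dnmt1Δ/Δep replicates 1 to 3, from 12 to 23 control reads and 127 to 184 reads after deletion. The lowest Dnmt1Δ/Δep library was above the highest control library. The log2 fold change was 3.23 (SE 0.46, adjusted p = 0.0069), the largest among the members tested, and the pairs gave 3.33, 3.88 and 1.95. Sprr3 was also called under each of 12 other settings (scaling, filter, model or 1 library left out), but not with both libraries of number 2 left out.

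Its promoter is shown because the largest change falls on a gene with no CpG in the whole 300-base window. The 120 bases before the start lie at chr3:92458721-92458840 (GRCm38, minus strand), and capitals mark the TATA box. No AP-1 match was found.
Sprr3: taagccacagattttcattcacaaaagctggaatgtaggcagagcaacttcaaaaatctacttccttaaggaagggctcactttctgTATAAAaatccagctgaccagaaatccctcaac

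Sprr2j-ps and Sprr2k were the 2 upregulated genes of the Sprr2 group, whose proteins act as short cross-bridging units of the envelope. Sprr2j-ps, annotated as protein coding by GENCODE but as a transcribed pseudogene by RefSeq, had 36.8, 29.2 and 39.6 CPM in control and 106, 141 and 86.7 CPM in Dnmt1Δ/Δep libraries. The control values were close together and every Dnmt1Δ/Δep library was at least 86.7 CPM. It rose by 1.66 on the log2 scale (SE 0.20, adjusted p = 0.0035), with pairs of 1.53, 2.27 and 1.13. It was called under the same 12 settings and with both libraries of any 1 number left out.

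Sprr2k had 20.9, 7.10 and 6.52 CPM in control and 65.8, 55.9 and 29.6 CPM in Dnmt1Δ/Δep libraries. Control replicate 1 lay above the other controls and below each Dnmt1Δ/Δep library. The log2 fold change was 2.13 (SE 0.51, adjusted p = 0.043), and the pairs gave 1.66, 2.97 and 2.18. The call was lost without control replicate 2, control replicate 3, Dnmt1Δ/Δep replicate 1 or Dnmt1Δ/Δep replicate 2, with adjusted p up to 0.14. It was also lost when a mean RPKM of at least 1 was required (adjusted p = 0.056) and with both libraries of number 2 or of number 3 left out.

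Sprr2d missed the threshold in the fit without the block and passed with it. It had 15.2, 24.8 and 70.6 CPM in control and 116, 202 and 151 CPM in Dnmt1Δ/Δep libraries, so that control replicate 3 stood well above the other controls and the groups still did not overlap. The log2 fold change was 2.09 (SE 0.54, adjusted p = 0.056), and 2.36 with the block (adjusted p = 0.025). Without control replicate 3 it was 2.96 and called (adjusted p = 0.0046), and without control replicate 1 it was 1.71 and not called (adjusted p = 0.0525). Sprr2a3 had 14.4, 24.9 and 43.5 CPM in control and 36.9, 59.8 and 60.4 CPM in Dnmt1Δ/Δep libraries, with 1 control library inside the Dnmt1Δ/Δep range. It reached a log2 fold change of 0.93 (adjusted p = 0.20), and of 1.03 with the block (adjusted p = 0.027). Of the 50-base windows of its longest transcript, 61.1% also occur in another gene, which limits its unique reads.

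The other Sprr2 genes were not called. Sprr2b and Sprr2i lay above the controls in all 3 Dnmt1Δ/Δep libraries, with log2 fold changes of 1.73 (adjusted p = 0.24) and 1.09 (adjusted p = 0.089). Sprr2e, Sprr2f and Sprr2g overlapped between the groups, with log2 fold changes of 1.09, 0.92 and 0.36. Sprr2h had 254, 329 and 599 CPM in control and 379, 509 and 403 CPM in Dnmt1Δ/Δep libraries, a log2 fold change of 0.13 (SE 0.30, adjusted p = 0.87). Sprr2a2 had at most 0.336 CPM, and 96.5% of its windows occur in another gene. Sprr2a1, with 0 to 9 reads per library and 96.3% of its windows shared, and the processed pseudogene Sprr2c-ps, with 0 reads in each control library, did not pass the filter.

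In 7 Sprr2 promoters an AP-1 match began between positions −198 and −193 relative to the start, and all 7 also had a TATA box that began at −29. The 40 bases from −206 to −167 are shown to let the shared stretch be compared, with AP-1 matches in capitals (GRCm38, plus strand). They lie at chr3:92316499-92316538 for Sprr2b, chr3:92338934-92338973 for Sprr2d, chr3:92351937-92351976 for Sprr2e and chr3:92364981-92365020 for Sprr2f. Those of Sprr2h, Sprr2i and Sprr2k lie at chr3:92385479-92385518, chr3:92407785-92407824 and chr3:92432376-92432415. Sprr2k has another match at −182.
Sprr2b: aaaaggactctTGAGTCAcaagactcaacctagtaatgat
Sprr2d: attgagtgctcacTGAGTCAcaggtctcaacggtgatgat
Sprr2e: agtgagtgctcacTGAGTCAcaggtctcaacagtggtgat
Sprr2f: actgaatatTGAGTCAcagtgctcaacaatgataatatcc
Sprr2h: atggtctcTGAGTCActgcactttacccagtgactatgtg
Sprr2i: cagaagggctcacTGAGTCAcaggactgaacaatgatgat
Sprr2k: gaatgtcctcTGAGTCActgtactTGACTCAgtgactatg

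Sprr2 genes with this match differed widely in their fitted change. Sprr2k and Sprr2d, with log2 fold changes of 2.13 and 2.09, and Sprr2h, with 0.13, all carry it. Genes with and without the match were not compared, and the part of AP-1 in these changes was not tested.

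Sprr1a and Sprr1b, which encode envelope precursors found in stratified epithelia, were, with Sprr2h, the 3 most abundant members and were not called. Sprr1b had 358, 503 and 781 CPM in control and 730, 877 and 477 CPM in Dnmt1Δ/Δep libraries, and the groups overlapped. Its log2 fold change was 0.34 (SE 0.32, adjusted p = 0.60), with pairs of 1.03, 0.80 and −0.71. Sprr1a had 268, 428 and 687 CPM in control and 656, 771 and 409 CPM in Dnmt1Δ/Δep libraries, with a log2 fold change of 0.41 (SE 0.36, adjusted p = 0.58) and pairs of 1.29, 0.85 and −0.75. For both genes the third pair had the opposite sign of the first 2 pairs. Sprr4 was at most at 0.439 CPM (log2 fold change 0.66, adjusted p = 0.67).

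Loricrin and involucrin were higher in all 3 Dnmt1Δ/Δep libraries than in any control library, but neither passed the threshold. Lor had 7.01, 11.4 and 12.7 CPM in control and 55.6, 29.1 and 16.7 CPM in Dnmt1Δ/Δep libraries. The distance between the groups was small at its closest, between control replicate 3 and Dnmt1Δ/Δep replicate 3. The log2 fold change was 1.71 (SE 0.44, adjusted p = 0.053), and the pairs gave 2.98, 1.36 and 0.39. Ivl had 10.6, 10.8 and 25.7 CPM in control and 52.9, 63.3 and 27.5 CPM in Dnmt1Δ/Δep libraries, so that both libraries of the third pair were nearly equal. Its log2 fold change was 1.61 (SE 0.43, adjusted p = 0.061), and the pairs gave 2.32, 2.55 and 0.10. DESeq2 called both, with adjusted p of 5.7e-04 for Lor and 0.0011 for Ivl, whereas the block moved them to 0.10 and 0.094.

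The promoters of both genes hold an AP-1 match and a TATA box close to the start. The 120 bases before it are shown with both motifs in capitals (minus strand), at chr3:92083143-92083262 for Lor and chr3:92573736-92573855 for Ivl. The AP-1 match begins at −48 in Lor and at −116 in Ivl.
Lor: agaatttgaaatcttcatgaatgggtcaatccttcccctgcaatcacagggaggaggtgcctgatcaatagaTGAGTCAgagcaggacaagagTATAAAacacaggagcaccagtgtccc
Ivl: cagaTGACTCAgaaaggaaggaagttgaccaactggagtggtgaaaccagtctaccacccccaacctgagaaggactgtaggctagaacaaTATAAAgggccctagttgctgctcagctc

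**Figure D3:**
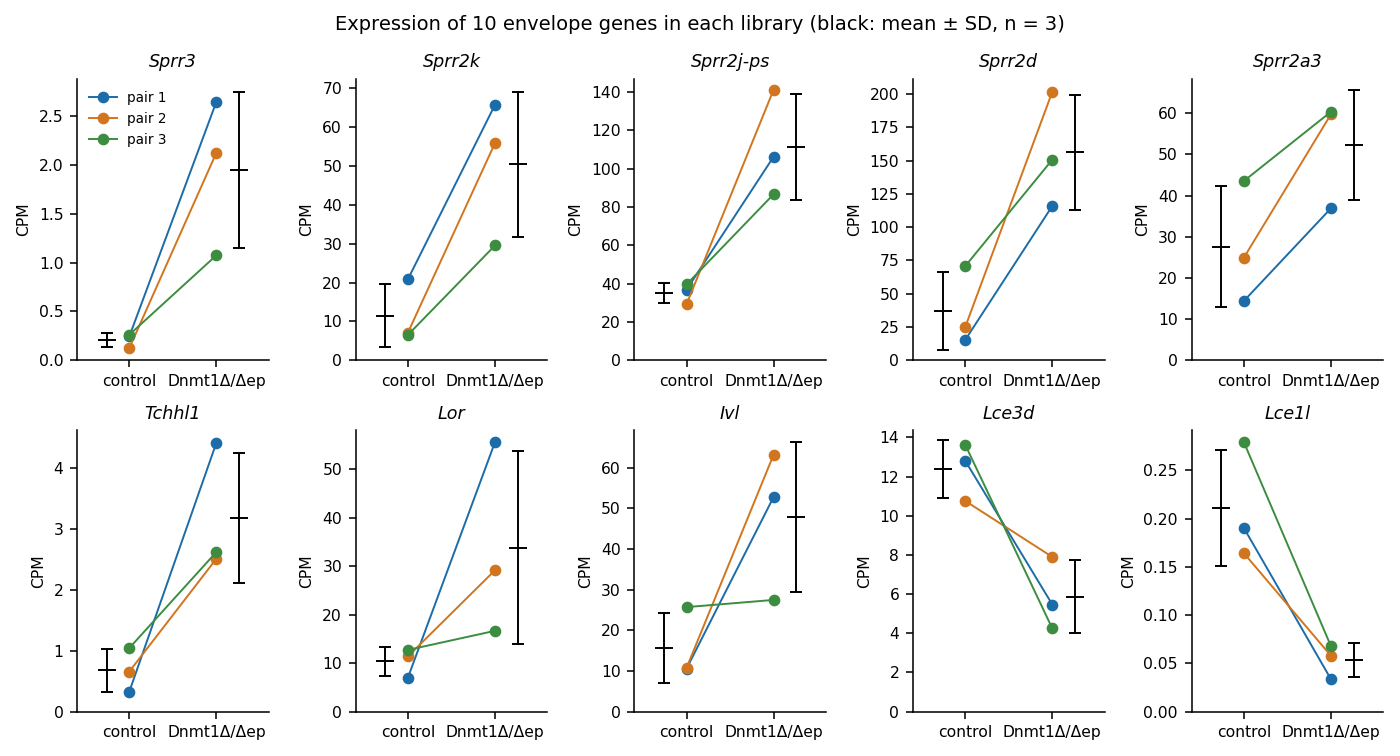
CPM of 10 members in each control and Dnmt1Δ/Δep library, with coloured lines joining libraries of the same replicate number and black bars giving mean ± SD (n = 3). Sprr3, Sprr2k, Sprr2j-ps, Sprr2d and Tchhl1 are higher in each Dnmt1Δ/Δep library, the third pair of Ivl is nearly flat, and Lce3d and Lce1l are lower in each Dnmt1Δ/Δep library.

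The LCE genes did not move in one direction. Of 20 Lce members tested, 10 had a positive and 10 a negative log2 fold change, with a median of 0.03, and Lce3d was downregulated. In 4 of them, Lce1l, Lce1m, Lce3c and Lce3d, all Dnmt1Δ/Δep libraries lay below all controls, which was the case for 11.7% of all genes, and in 0 they lay above. These 4 were the only members tested with that order.

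Lce3d belongs to the Lce3 group, which is known to be induced by wounding and in inflamed skin. It had 12.8, 10.8 and 13.6 CPM in control and 5.47, 7.90 and 4.25 CPM in Dnmt1Δ/Δep libraries. The control values were close together, and the groups were nearest in the second pair. Lce3d changed by −1.08 on the log2 scale (SE 0.24, adjusted p = 0.035), and the pairs gave −1.23, −0.45 and −1.68. The call was lost without control replicate 2, control replicate 3, Dnmt1Δ/Δep replicate 1 or Dnmt1Δ/Δep replicate 3, with adjusted p up to 0.13, and with both libraries of any 1 number left out. Of the 50-base windows of Lce3d, 49.3% also occur in another gene.

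Its neighbour Lce3c had 23.8, 19.8 and 22.2 CPM in control and 13.4, 19.2 and 9.89 CPM in Dnmt1Δ/Δep libraries. The groups were separated by less than 1 CPM, and the log2 fold change of −0.63 was not called (SE 0.24, adjusted p = 0.15). Lce3e and Lce3f, next to them in the cluster, had log2 fold changes of 0.10 and −0.18, and Lce3a and Lce3b of 1.02 (adjusted p = 0.37) and 0.49. In the third pair all 6 Lce3 genes had a negative ratio. Between 35.7% and 49.3% of the windows of Lce3c to Lce3f are shared with another gene, which limits their unique reads.

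The promoter of Lce3d is given beside those of Lor and Ivl, since neither exact motif was found in it (120 bases before the start, chr3:92957270-92957389, plus strand, no capitals). Only the letters TATAAA were searched, so the near variant ATAAAA in this stretch was not counted.
Lce3d: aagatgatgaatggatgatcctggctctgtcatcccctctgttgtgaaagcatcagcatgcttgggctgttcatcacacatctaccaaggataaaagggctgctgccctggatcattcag

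The Lce1 genes, which belong to the uppermost layers of normal epidermis, were expressed at very low levels. Except for Lce1g and Lce1h, no Lce1 gene exceeded 1.325 CPM in any library. Lce1l fell from 18, 16 and 15 reads in control to 2, 5 and 8 reads in Dnmt1Δ/Δep libraries when the pair was used as a block (log2 fold change −1.94, adjusted p = 0.047). Without the block the log2 fold change was −1.89 (SE 0.47, adjusted p = 0.050), just past the limit.

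Lce1h had 1.90, 1.16 and 0.875 CPM in control and 5.52, 1.34 and 6.02 CPM in Dnmt1Δ/Δep libraries, with the second Dnmt1Δ/Δep library inside the control range. Its log2 fold change was 1.70 (SE 0.57, adjusted p = 0.12). Lce1g, its neighbour in the cluster, was ordered in the same way, with 8.12, 4.07 and 9.91 CPM in Dnmt1Δ/Δep against 3.02 to 5.35 CPM in control libraries (log2 fold change 0.82, adjusted p = 0.22). These 2 genes were the only members with their highest ratio in the third pair. Lce1m, at most 0.223 CPM, had a log2 fold change of −0.74 (adjusted p = 0.36). Lce6a had a log2 fold change of 0.24 (adjusted p = 0.81), and Lce1j, with 0 to 6 reads, was not tested.

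Among the fused S100-type genes, Tchhl1 was upregulated and the other 5 tested were not. Tchhl1, a trichohyalin-like gene at the end of the cluster, had 0.328, 0.657 and 1.04 CPM in control and 4.41, 2.51 and 2.62 CPM in Dnmt1Δ/Δep libraries. The groups did not overlap. Tchhl1 rose by 2.25 on the log2 scale (SE 0.45, adjusted p = 0.023), and the pairs gave 3.66, 1.90 and 1.31. The call was lost without control replicate 2 or without any 1 of the Dnmt1Δ/Δep libraries, with adjusted p up to 0.097, and with both libraries of number 2 left out. Its AP-1 match begins at −87 and is in capitals in the 120 bases at chr3:93468634-93468753 (plus strand).
Tchhl1: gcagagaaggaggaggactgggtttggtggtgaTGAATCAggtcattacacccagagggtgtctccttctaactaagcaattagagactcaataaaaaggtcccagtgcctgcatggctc

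Tchh, the inner root sheath protein, was the steadiest member of the group. It had 23.5, 22.3 and 29.9 CPM in control and 30.4, 27.2 and 28.6 CPM in Dnmt1Δ/Δep libraries, with a log2 fold change of 0.19 (SE 0.14, adjusted p = 0.49). Summed inner root sheath keratins were at 1.004 to 1.30 CPM in control and 0.786 to 1.246 CPM in Dnmt1Δ/Δep libraries, and Krt26 had no read. Of the 8 keratins in that list, 3 were tested and 0 called, with 1 higher and 0 lower at an unadjusted p under 0.05 in edgeR.

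Rptn, whose product repetin is an envelope precursor, had 2.83, 7.17 and 24.1 CPM in control and 47.2, 21.1 and 27.2 CPM in Dnmt1Δ/Δep libraries. Control replicate 3 lay inside the Dnmt1Δ/Δep range, and the log2 fold change was 1.49 (SE 0.71, adjusted p = 0.26). Without control replicate 3 it was 2.66 with an adjusted p of 0.030. Crnn, encoding cornulin, a protein abundant in oesophageal epithelium, had 2.14, 3.20 and 5.36 CPM in control and 7.62, 5.66 and 4.47 CPM in Dnmt1Δ/Δep libraries (log2 fold change 0.73, adjusted p = 0.28). Hrnr and Flg2, which encode the filaggrin-like proteins hornerin and filaggrin-2, had log2 fold changes of 0.66 (adjusted p = 0.74) and 0.27 (adjusted p = 0.82), with at most 2.11 CPM. Hrnr had 8, 64 and 101 reads in control replicates 1 to 3. Its log2 fold change was 0.11 without control replicate 1 and 1.85 without control replicate 3, and it was not called in either fit.

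Flg had 0, 1 and 1 reads in control and 0, 5 and 0 in Dnmt1Δ/Δep libraries and was not tested. A count of 3, read here as the limit of a count of 0, corresponds to 0.0254 to 0.0558 CPM and covers counting error only. Of the 50-base windows of the longest Flg transcript, 79.2% recur within it, and this was 69.1% for Hrnr and 65.4% for Flg2. Reads from such repeats may not map uniquely, so the low values of these 3 genes are uncertain.

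Crct1, a small cysteine-rich gene between Lce3f and Lce1m, had 48.3, 59.0 and 87.1 CPM in control and 75.9, 89.2 and 51.0 CPM in Dnmt1Δ/Δep libraries, and the groups overlapped (log2 fold change 0.15, adjusted p = 0.81). Lelp1, expressed at most at 0.187 CPM, had a log2 fold change of 0.81 (SE 0.87, adjusted p = 0.66).

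The 3 replicate pairs did not give the same picture of the locus. In the first and second pair 37 of the 45 members tested were higher in Dnmt1Δ/Δep cells, with median log2 ratios of 1.29 and 0.80. In the third pair 14 were higher and 31 lower, with a median of −0.57. The 28 members with a mean of at least 1 CPM split there into 13 higher and 15 lower (median −0.099), and the 17 below that level into 1 and 16 (median −0.88). In the first 2 pairs the more abundant members had medians of 1.51 and 1.24. Over all genes the percent higher was 50.8, 49.96 and 52.4 in the 3 pairs, with medians of 0.01, −0.0003 and 0.02. A positive ratio in all 3 pairs was found for 12 members, and a negative ratio in all 3 for 4, compared with 27.6% and 25.4% of all genes.

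The families differed in how they moved in the third pair. Sprr2 had median log2 ratios of 1.57, 1.98 and 0.05 in the 3 pairs, and Sprr1/3/4 of 1.97, 0.87 and −0.73. Lce1 had 0.60, 0.21 and −0.88, and Lce3 had −0.15, 0.75 and −0.98. The fused S100-type genes had 2.74, 0.81 and −0.16. Lor and Ivl were positive in all 3 pairs, with medians of 2.65, 1.95 and 0.24. A pair has 1 library per arm, so these ratios carry no test.

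**Figure D4:**
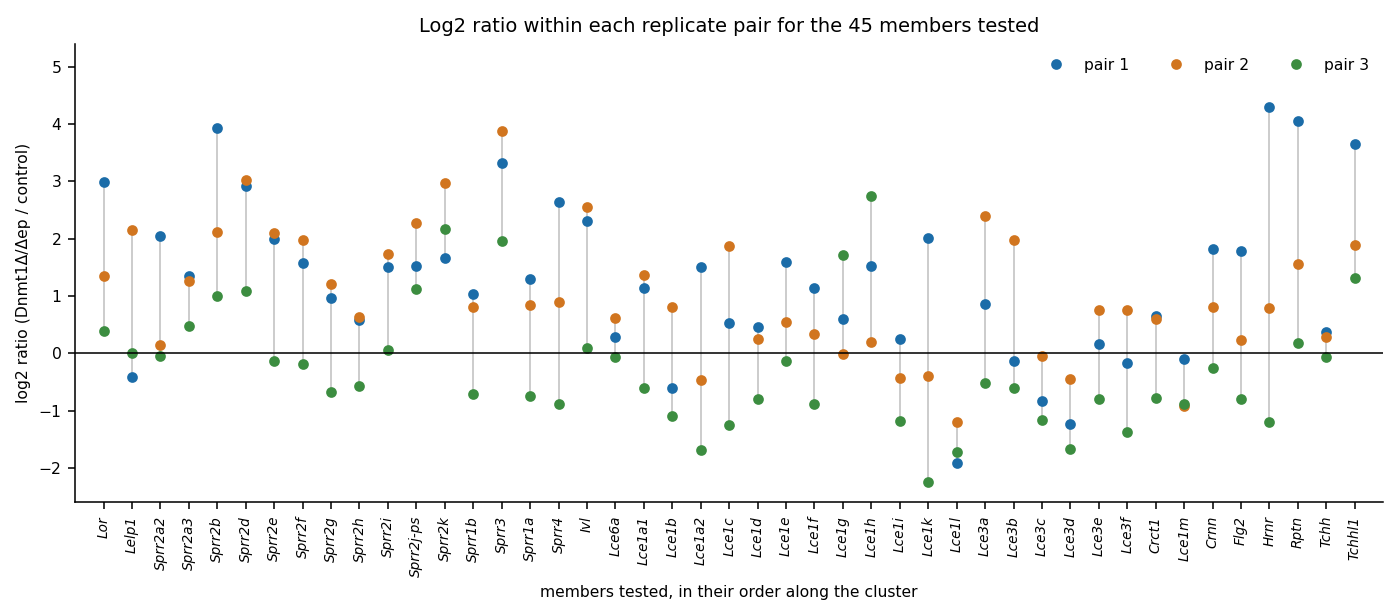
Log2 ratio of Dnmt1Δ/Δep over control within each replicate pair for the 45 members tested, in their order along the cluster from Lor to Tchhl1, with grey lines spanning the 3 pairs. The third pair (green) is below 0 for 31 members, while Sprr3, Sprr2k, Sprr2j-ps, Sprr2d, Sprr2b and Tchhl1 are above 0 in each pair.

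The third pair differed through both of its libraries. Control replicate 3 was the highest of the 3 control libraries for 35 of the 45 members, and Dnmt1Δ/Δep replicate 3 the lowest of its group for 28. Control replicate 1 was the lowest control library for 25 members, and Dnmt1Δ/Δep replicate 1 the highest of its group for 22. Control replicate 3 was also the shallowest library, with 53433121 reads on genes, and Dnmt1Δ/Δep replicate 3 the deepest, with 115526598, and the part of depth in this order was not tested. With both libraries of the third pair left out, the median log2 fold change of the members tested was 1.04, and it was 0.16 and 0.23 with the first or the second pair left out.

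Summed over all 49 members, expression was 1167, 1564 and 2611 CPM in control and 2538, 3073 and 1930 CPM in Dnmt1Δ/Δep libraries. The means of 1781 ± 746 and 2514 ± 572 CPM (SD, n = 3) overlapped within their spread. The ratios were 2.17 and 1.97 in the first 2 pairs and 0.739 in the third. Sprr1a, Sprr1b and Sprr2h together made up 78.4 ± 2.70% of this sum in control and 68.9 ± 1.82% after deletion. The shares were 75.4%, 80.6% and 79.1% in control replicates 1 to 3 and lay below that, at 69.6%, 70.2% and 66.8%, after deletion. An exact two-sided permutation test of 3 against 3 libraries cannot go below p = 0.10, and no test was made of these sums.

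**Figure D5:**
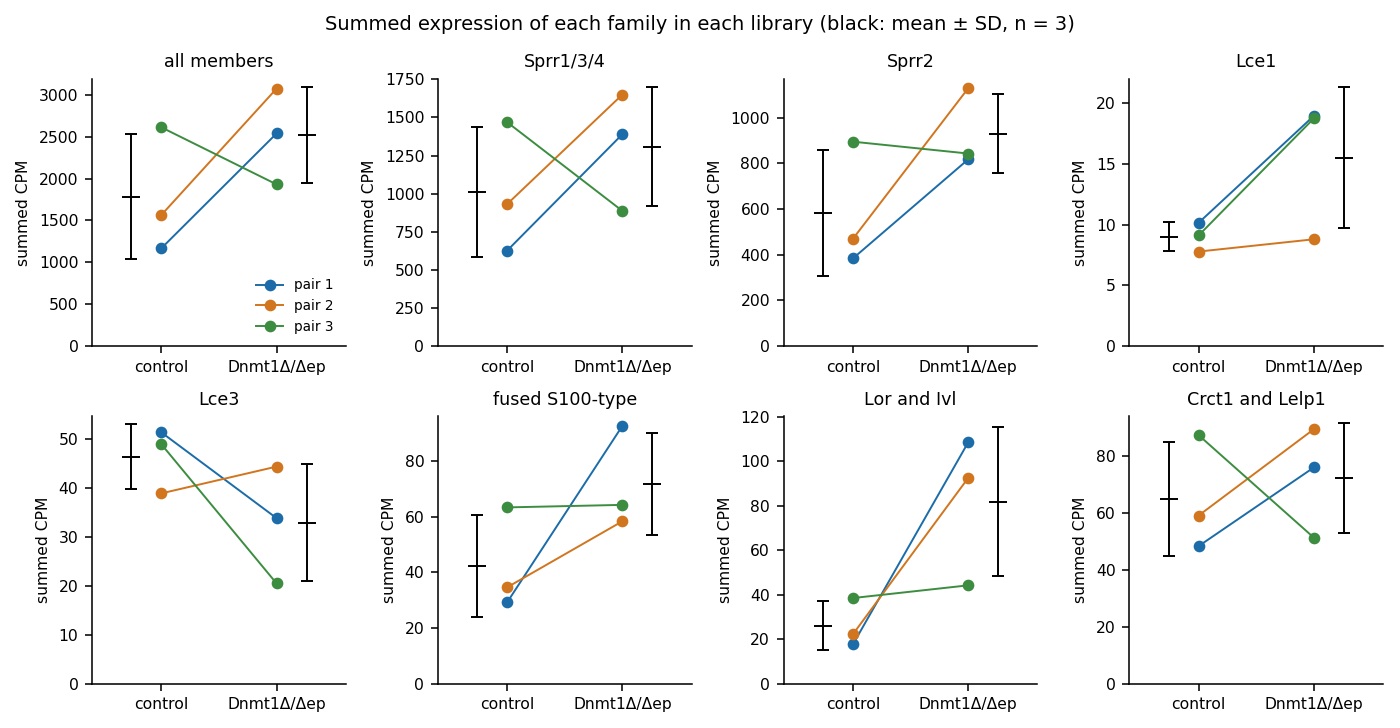
Summed CPM of all members and of each family except Lce6a in the 6 libraries, with lines joining libraries of one replicate number and black bars giving mean ± SD (n = 3). Among the sums plotted, those of all members, Sprr1/3/4, Sprr2, Lce3 and of Crct1 with Lelp1 are lower in the Dnmt1Δ/Δep library of the third pair, and that of Lor and Ivl is 1.15 times the control value.

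Most genes outside the cluster that take part in envelope formation were not called. Of 18 such genes, all tested, 2 were upregulated and 0 downregulated, with a median log2 fold change of 0.27 (4 higher and 1 lower at an unadjusted p under 0.05 in edgeR). Alox12b, a lipoxygenase needed for the lipid coat of the envelope, was at 8.99 ± 0.341 CPM in control and 38.5 ± 11.4 CPM after deletion (SD, n = 3). It was upregulated by 2.10 on the log2 scale (adjusted p = 0.0022), also under each of the 12 other settings. Cnfn, encoding the envelope protein cornifelin, had 25.1 ± 6.54 and 98.2 ± 50.2 CPM (log2 fold change 1.97, adjusted p = 0.032), but the third pair gave 0.31 and it was not called with the block (adjusted p = 0.070) or without control replicate 1, control replicate 2, Dnmt1Δ/Δep replicate 1 or Dnmt1Δ/Δep replicate 2. Tgm3, a transglutaminase that joins envelope proteins, had a log2 fold change of −1.38 (adjusted p = 0.29) and was downregulated with the block (adjusted p = 0.026) and without control replicate 1. The cross-linking enzyme Tgm1 had a log2 fold change of 0.52 (adjusted p = 0.29). The most abundant genes of this list, Ppl, Sbsn and Krtdap, had log2 fold changes of 0.10, 0.22 and −0.75 and were not called. The pair medians of the list were 1.248, 0.30 and −0.32, with 16, 13 and 4 of the 18 genes positive.

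Of 30 transcription factors and chromatin regulators known to act on envelope genes, 1 was upregulated and 0 were downregulated (5 higher and 3 lower at an unadjusted p under 0.05 in edgeR). Fosl1, an AP-1 subunit, had 16.7, 8.07 and 8.32 CPM in control and 38.0, 33.1 and 21.6 CPM in Dnmt1Δ/Δep libraries. Its log2 fold change was 1.48 (adjusted p = 0.037), and the pairs gave 1.18, 2.04 and 1.37. The call was lost without control replicate 2, control replicate 3, Dnmt1Δ/Δep replicate 1 or Dnmt1Δ/Δep replicate 2. The other AP-1 subunits in the list, Jun, Junb, Jund, Fos and Fosl2, had log2 fold changes between −0.18 and 0.53. Gata3 had a log2 fold change of −0.79 (adjusted p = 0.015), with pairs of −0.46, −0.74 and −1.15, and was not called because the change was smaller than 1. Notch1 and Smarca4, both abundant genes of the list, had −0.38 and −0.004 and were not called. The median of the list was 0.02.

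The keratins of early differentiation had negative fitted changes that were not called. Krt1, a keratin that suprabasal cells switch on, had 53.2, 356 and 530 CPM in control and 66.1, 59.2 and 65.5 CPM in Dnmt1Δ/Δep libraries, with a log2 fold change of −2.30 (adjusted p = 0.085). Its partner Krt10 had 9.63, 32.1 and 29.7 CPM in control and 10.6, 7.10 and 6.30 CPM in Dnmt1Δ/Δep libraries (log2 fold change −1.58, adjusted p = 0.069). Control replicate 1 lay with the Dnmt1Δ/Δep libraries for both keratins. Of 10 suprabasal markers, 9 were tested, and Calml3, a calmodulin-like gene of differentiating epithelium, was upregulated (log2 fold change 2.60, adjusted p = 0.033), a call lost without control replicate 2 or any 1 Dnmt1Δ/Δep library. At an unadjusted p under 0.05 in edgeR, 1 of the markers was higher and 3 were lower (Krt1, Krt10 and Krtdap). The median was −0.57 and the pair medians were 1.05, −0.19 and −1.77. Sbsn, Krtdap, Dsg1a and Dsc1 stand in this list and in that of the envelope partners.

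Summed markers of internal epithelium, melanocytes and leukocytes were higher in each Dnmt1Δ/Δep library than in any control library. Internal epithelium markers (Krt4, Krt8, Krt13, Krt18 and Krt19) summed to 18.2 to 37.7 CPM in control and 108 to 235 CPM in Dnmt1Δ/Δep libraries, and 3 of the 4 tested (Krt4, Krt8 and Krt18) were upregulated, and all 4 with the block, when Krt19 passed (adjusted p = 0.011). The Krt18 call was lost without control replicate 2, control replicate 3, Dnmt1Δ/Δep replicate 1 or Dnmt1Δ/Δep replicate 2, with adjusted p up to 0.10. Krt13, a defining keratin of that epithelium, was at 0.0106 to 0.0718 CPM in control and 0.0671 to 0.174 CPM in Dnmt1Δ/Δep libraries. Melanocyte markers summed to 233 to 596 and 716 to 951 CPM (0 of 10 called, 7 higher at an unadjusted p under 0.05 in edgeR, and 3 upregulated with the block). Fibroblast markers summed to 82.6 to 151 and 122 to 347 CPM, and 1 of 10 was upregulated (Fbn1), but 0 with the replicate block (adjusted p = 0.060), and the call was also lost without any 1 control library, Dnmt1Δ/Δep replicate 1 or Dnmt1Δ/Δep replicate 3. At an unadjusted p under 0.05 in edgeR, 3 fibroblast markers were higher and 0 lower. Their pair medians were 1.70, −0.99 and 2.10, with 10, 1 and 8 of the 10 positive. Leukocyte markers summed to 0.349 to 1.08 and 2.66 to 4.55 CPM. Csf1r, with 144, 68 and 169 reads after deletion, and Itgam, with 71, 133 and 210, made up most of that sum and were upregulated among the 3 tested, but Csf1r was not with the block (adjusted p = 0.053). Of 12 other settings, Csf1r was called in 7 and Itgam in 6, and both calls were lost at a mean RPKM of at least 1. Itgam was also lost without control replicate 1, control replicate 2 or any 1 Dnmt1Δ/Δep library, and Csf1r without control replicate 3, Dnmt1Δ/Δep replicate 1 or Dnmt1Δ/Δep replicate 3. The defining leukocyte marker Ptprc had 12, 1 and 0 reads in Dnmt1Δ/Δep libraries 1 to 3, Cd3e had 1, 2 and 1, and Adgre1 and Cd207 each had 0, 0 and 1. Cd74, the other leukocyte marker tested, had 0, 0 and 7 reads in control and 29, 14 and 43 after deletion (adjusted p = 0.14), and all 3 tested were higher at an unadjusted p under 0.05 in edgeR. Activated keratinocyte markers summed to 14650 to 19570 and 15160 to 17630 CPM (0 of 4 called, and 0 at an unadjusted p under 0.05 in edgeR). The 9 matched markers of the hair shaft summed to 26.0 to 30.5 and 21.2 to 25.2 CPM, with 0 of the 3 tested called and 1 lower at an unadjusted p under 0.05 in edgeR. The part of these markers' cells in the changes of the envelope genes was not tested.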

How the data were processed

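Libraries of keratinocytes from 3 control and 3 Dnmt1Δ/Δep mice were compared. The authors removed adapters (cutadapt) and ribosomal reads (Bowtie2), aligned reads with STAR and counted unique reads with the union model of htseq-count (GRCm38 in the submitters' processing notes, although the paper's text names a human build for genes). The deposited gene values are raw counts. Whether counting used strand is not given in the sources used here. Entries naming no gene (5, with 8.73% to 12.9% of reads) were left out. The tables of repeats and of the authors' own comparisons (mean normalized counts, fold changes and p-values) were not used here.

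Symbols and exon lengths came from GENCODE M21 (42462 of 43629 identifiers matched, 97.3%). The test was the quasi-likelihood F test of edgeR, with TMM factors (0.980 to 1.02), filterByExpr (minimum counts 10 and 15), no block and Benjamini-Hochberg adjustment over all 16829 genes tested. The limits for a call were 0.05 for the adjusted p and 1 for the log2 change in either direction. Standard errors are the log2 change divided by the root of F. CPM are per normalized library, RPKM are CPM per kb of exon, and pair ratios used a prior count of 2. The same tests were checked on simulated data. Tools were Python 3.11.15 with pandas 2.3.3 and matplotlib 3.10.9, and R 4.3.3 with limma 3.58.1, DESeq2 1.42.0 and edgeR 4.0.16.

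The replicate numbers of the titles pair the libraries. Libraries of one number share a lane according to the file headers (3 lanes), and their log2 CPM, taken as deviations from each group's mean, were correlated across genes (0.43, 0.28 and 0.30 for numbers 1, 2 and 3). The study's methods use no block, so the blocked fit is an alternative. Other alternatives were RLE and upper-quartile factors, DESeq2, no filter, a mean RPKM of at least 1, leaving out each library and, chosen after the values were seen, leaving out both libraries of a number.

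The members and lists were chosen with earlier results of these data known. Named members are those called with or without the block, the 11 outside Sprr and Lce, the 5 most abundant Sprr and Lce genes, and the 3 largest and 3 smallest changes. Named partners and regulators are those called and the 3 most abundant, of which 1 gene is not reported here. Sprr2b, Sprr2e, Sprr2f, Sprr2g, Sprr2i, Lce1h, the low members, Tgm1, Tgm3, the AP-1 subunits, Gata3, Krt1, Krt10 and other markers were added after their values were seen. The reads carry no molecular identifiers, and depth limits genes with few reads.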

Additional observations from a re-analysis of the deposited data

How the results depend on the processing

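The direction of the median change of the members tested held under each alternative (0.16 to 1.04 on the log2 scale), and so did the sign of the median log2 ratio in each pair under another prior count, scaling or filter. At a mean of at least 1 CPM the pair medians were 1.51, 1.24 and −0.099, so that the negative median of the third pair was close to 0. The number of upregulated members was 9 with DESeq2 and 9 without the filter, and 2 to 10 when 1 library was left out. It was 1 with both libraries of number 2 left out and 10 with both of number 3 left out. The number downregulated was 2 with RLE factors, 2 with the replicate block, 0 to 1 without 1 library, and 0 with both libraries of number 1, 2 or 3 left out. Over all genes, 394 were upregulated and 35 downregulated at a mean RPKM of at least 1 (11407 genes), 116 were downregulated with DESeq2 and 107 without the filter, and leaving out 1 library gave 559 to 1183 upregulated and 15 to 180 downregulated. Of the envelope partners, 1 was upregulated and 1 downregulated with the replicate block, and 1 to 3 and 0 to 2 without 1 library. Of the regulators, 0 to 1 were upregulated and 0 to 1 downregulated without 1 library. Members above all controls numbered 9 to 21 without 1 library, the highest being without control replicate 3. Any gene reaches this order more easily with fewer libraries. The share over all genes, 18.2% with all 6 libraries, was not computed for these fits, so the numbers are not read as a result about the members. Among the named members, signs changed when 1 library was left out for Flg2 (−0.10 to 0.80), Crct1 (−0.082 to 0.42), Sprr2h (−0.11 to 0.56), Lce3f (−0.49 to 0.14) and Lce3e (−0.14 to 0.37). They did not change under another scaling, filter or model. Signs of single members with both libraries of a number left out were not compared. The block changed the calls of Sprr2a3, Sprr2d and Lce1l and of no other named member, and the cause was not tested.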
